A study of Mus musculus with 12 samples.

Results

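The genes described here are 10 genes of MHC class II antigen presentation. They are the classical chains H2-Aa, H2-Ab1 and H2-Eb1, the invariant chain Cd74, the peptide exchange subunits H2-DMa, H2-DMb1 and H2-DMb2, the inhibitor subunits H2-Oa and H2-Ob, and the regulator Ciita. They were taken as a list of names, and all 10 were found among the 17523 genes of the table of normalized counts, where a normalized count is a gene's read count divided by a depth factor of its library. CD4+ T cells had been sorted from the spleens of unimmunized C57BL/6 Gr/fr mice, whose Csf2 allele also encodes iCre and BFP and whose Rosa26 locus makes eYFP once iCre has removed a stop cassette. YFP therefore marks cells that make GM-CSF, the product of Csf2, or once made it, and their progeny, so that a YFP+ cell need not be making GM-CSF. Naive cells (CD44-) and effector memory cells (T_EM, with high CD44), sorted by CD44 among other surface markers, were each divided into YFP- and YFP+ cells, which gave 4 groups of 3 libraries that share the same alleles and received no treatment. The methods give 2 to 3 months as the age of mice used for sorted CD4+ T cells. Each library held between 40974124 and 57822269 reads on genes, and no class II gene had fewer than 21 reads in any library.

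MHC class II molecules are pairs of an alpha and a beta chain that carry peptides from the endocytic pathway to the cell surface, where CD4+ T cells read them. They are made mainly by dendritic cells, B cells, macrophages and thymic epithelium, and mouse T cells are generally regarded as making little or none. CIITA has no DNA-binding domain of its own and acts through factors bound to a shared promoter module, whose X box is held by the RFX complex and whose Y box is held by NF-Y.

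All members but Ciita and Cd74, 8 of the 10, sit together on chromosome 17 between positions 34092379 and 34316674 (GRCm38.p6, the assembly behind mm10), and those 2 each lie on another chromosome. RefSeq promoter sequence, from 250 bases before a start site to 50 after it, was found for 7 of the 10 genes and was not found for H2-Ab1, Cd74 and Ciita. The stretches shown are those around the Y box, because class II promoters share this part of the module. Capitals mark GNAAC, a core of the X box in which N is any base, and TGATTGG, the Y box with its reversed CCAAT; both sets of letters were chosen after these sequences had been seen, and they do not overlap each other. All are written 5′ to 3′ along the gene, and the locations are chr17:34287862-34287909 on the minus strand for H2-Aa and, on the plus strand, chr17:34305771-34305817 for H2-Eb1, chr17:34153092-34153139 for H2-DMb1, chr17:34145121-34145168 for H2-DMb2, chr17:34092298-34092345 for H2-Oa and chr17:34238813-34238857 for H2-Ob.
H2-Aa: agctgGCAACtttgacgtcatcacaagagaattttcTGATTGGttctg
H2-Eb1: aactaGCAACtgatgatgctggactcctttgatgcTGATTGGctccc
H2-DMb1: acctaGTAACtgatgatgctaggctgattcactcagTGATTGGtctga
H2-DMb2: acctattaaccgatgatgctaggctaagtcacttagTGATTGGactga
H2-Oa: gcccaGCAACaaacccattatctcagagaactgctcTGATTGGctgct
H2-Ob: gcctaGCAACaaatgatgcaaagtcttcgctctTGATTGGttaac

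TGATTGG was present in 6 of the 7 genes, starting between 45 and 92 bases before the start site, and in neither of the 2 windows of H2-DMa. In 5 of them GNAAC came first with 20 to 30 bases between, and its first base was 28 to 31 bases before that of TGATTGG. H2-DMb2 had no GNAAC at that spacing. Of 32851 promoter windows searched on both strands, 84.8% held GNAAC, 7.82% held TGATTGG and 0.323% held the pair at this spacing. A match is a description of the letters and shows no binding.

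The sort was visible in the libraries. Cd44, which encodes the CD44 used for sorting, was at 2334 to 3372 normalized counts in the 6 naive libraries and at 21778 to 29383 in the 6 T_EM libraries. Csf2 was at 139, 55.9 and 152 in the YFP+ T_EM libraries and at no more than 3.94 in any of the other 9. T cell genes were high throughout: Cd3e lay between 30224 and 47263 and Cd4 between 36078 and 67471 over the 12 libraries. Replicate 2 of the naive YFP+ cells stood apart among the naive libraries, with the highest level of 7 of the 10 class II genes among them, so the members' fold changes and levels that turn on it are also given without it.

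In T_EM cells all 10 class II genes were lower in YFP+ than in YFP- cells. Overlap between compared groups is given below as a description only, without its share over all genes. Among the 15587 genes tested, 728 were lower (4.67%) and 359 were higher (2.30%) at an adjusted p of 0.05 or less by limma on log2(normalized count + 1). The members' median log2 fold change was -3.51, against -0.0128 over all genes tested. Summed over the 10 genes, the YFP- T_EM libraries held 240070, 175401 and 362406 normalized counts and the YFP+ T_EM libraries 30982, 13227 and 25052. As a share of each library's reads, this was 0.552, 0.409 and 0.83% in YFP- and 0.0669, 0.0308 and 0.0569% in YFP+ T_EM cells. In such sorted pools, fewer cells of a type and less RNA per cell cannot be told apart.

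**Figure D1:**
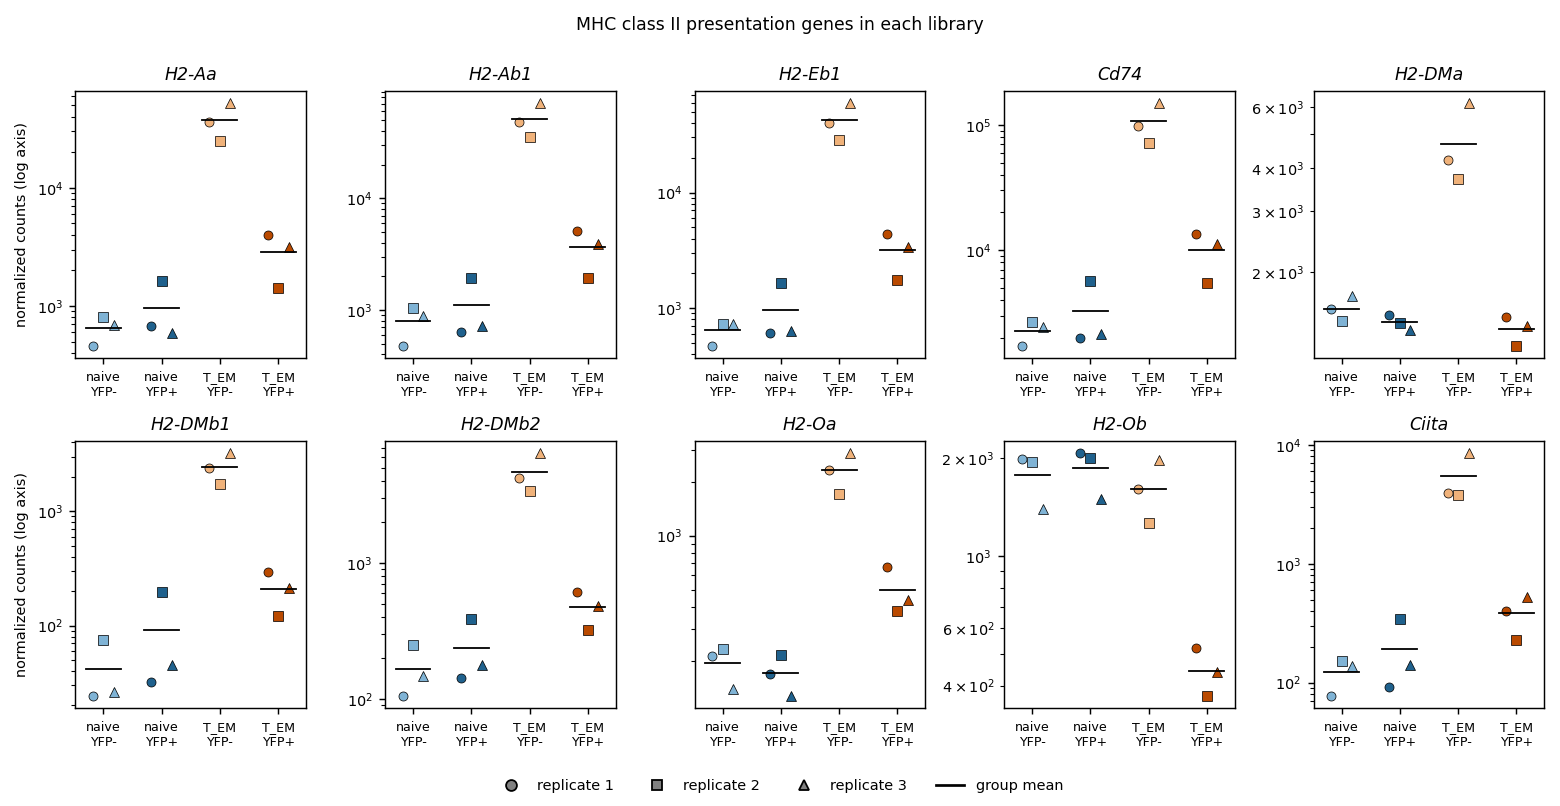
Normalized counts (log axis) of the 10 class II genes in each of the 12 libraries, by group, with symbols for replicates and lines for group means. YFP- T_EM libraries are the highest for every gene except H2-Ob, where YFP+ T_EM libraries are the lowest.

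The classical chains are both chains of the peptide-binding molecule I-A (H2-Aa and H2-Ab1) and the beta chain of I-E (H2-Eb1). H2-Aa was at 459.6, 814 and 692 normalized counts in naive YFP- and at 680.2, 1639 and 593 in naive YFP+ libraries. In T_EM cells it was at 35708, 25054 and 52232 in YFP- and at 4002, 1430.1 and 3133 in YFP+ libraries. The lowest YFP- T_EM library thus stood far above the highest YFP+ one, and between the group means on the log scale the difference was 13.8-fold (log2 fold change -3.78, SE 0.434, adjusted p 0.000311). For H2-Ab1 the naive libraries gave 477, 1043 and 876 in YFP- and 641, 1929 and 722 in YFP+ cells. The T_EM libraries gave 47727, 35321 and 71386 for it in YFP- and 5089, 1938 and 3926 in YFP+ cells. It was the gene with the steepest fall of the 10, 14.6-fold (log2 fold change -3.87, SE 0.458, adjusted p 0.000361). H2-Eb1 was found at 471, 735 and 732 in naive YFP- and at 609.7, 1666 and 634 in naive YFP+ libraries. Its T_EM values were 39757, 28495 and 59811 in YFP- and 4376, 1739.8 and 3358 in YFP+ cells. The fall of H2-Eb1 was 13.8-fold (log2 fold change -3.79, SE 0.417, adjusted p 0.000254), so the 3 chains fell by close amounts.

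Cd74 encodes the invariant chain, which fills the groove of new class II molecules and takes them to the endosome. It was at 1727, 2687 and 2454 normalized counts in naive YFP- and at 1989, 5732 and 2150.4 in naive YFP+ libraries. In T_EM libraries it was at 98157, 70981 and 149677 in YFP- and at 13532, 5477 and 11136 in YFP+ cells. The groups were clear of each other, and Cd74 was 10.8-fold lower in YFP+ T_EM cells (log2 fold change -3.43, SE 0.422, adjusted p 0.00045).

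H2-DM, a pair of H2-DMa with either beta chain, replaces the last fragment of the invariant chain with peptide. H2-DMa was at 1563, 1443 and 1711 normalized counts in naive YFP- and 1506, 1432 and 1366 in naive YFP+ libraries. In T_EM cells it was at 4219.9, 3713 and 6168 in YFP- and at 1486, 1226 and 1403 in YFP+ libraries. Only the YFP- T_EM libraries were high, and YFP+ T_EM cells held levels close to those of naive cells; the fall was 3.35-fold (log2 fold change -1.75, SE 0.155, adjusted p 9.39e-05). H2-DMb1, the lowest member in counts in every group but YFP- T_EM cells, was at 24.2, 74.3 and 26.5 in naive YFP- and 32.2, 197 and 45.6 in naive YFP+ libraries. Its T_EM values were 2379, 1716 and 3239 in YFP- and 294, 121 and 212 in YFP+ cells. H2-DMb1 fell almost as steeply as the classical chains (log2 fold change -3.58, SE 0.615, adjusted p 0.00307), with the largest standard error of the 10. The other beta chain, H2-DMb2, was at 105, 249 and 146 in naive YFP- and 142, 389.6 and 178 in naive YFP+ libraries. T_EM libraries held 4246, 3367 and 6475 of it in YFP- and 609.6, 319 and 484 in YFP+ cells. H2-DMb2 fell too (log2 fold change -3.31, SE 0.405, adjusted p 0.000445), so that both beta chains fell by more than the alpha chain.

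The beta chain genes are alike in sequence: their transcripts share an identical stretch of 221 bases, and 361 of the 1355 windows of 50 bases in H2-DMb1 also occur in H2-DMb2 (26.6%). Counting could therefore have split their reads, and each alone is uncertain. Summed into 1 gene they gave a log2 fold change of -3.40 in T_EM cells (adjusted p 0.000696). H2-DMa overlaps Brd2 on the other strand, H2-Oa overlaps BC051537, Ciita overlaps Dexi and LOC115488669, and Cd74 overlaps Mir5107. The strand setting of the counting is not given in the sources used here, and without it reads of overlapping genes cannot be told apart.

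H2-O is a pair of H2-Oa and H2-Ob that binds H2-DM and restrains it. H2-Oa was at 214, 233 and 139 normalized counts in naive YFP- and at 169, 215 and 127 in naive YFP+ libraries. It was at 2332, 1704 and 2892 in YFP- and 670.3, 378 and 440.1 in YFP+ T_EM libraries. These T_EM groups did not overlap, and H2-Oa fell 4.68-fold (log2 fold change -2.23, SE 0.281, adjusted p 0.00052). H2-Ob differed from all other members in being as high in naive as in YFP- T_EM cells. It was at 1981, 1946 and 1399 in naive YFP-, at 2074, 2002 and 1500.3 in naive YFP+ and at 1603, 1267 and 1967 in YFP- T_EM libraries. The 3 YFP+ T_EM libraries, at 523, 372 and 440.1, were below the other 9. Against YFP- T_EM cells the fall was 3.60-fold (log2 fold change -1.85, SE 0.195, adjusted p 0.000209).

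Ciita encodes the transactivator on which transcription of class II genes depends. It was at 77.2, 152 and 139 normalized counts in naive YFP- and at 91.5, 343 and 140.4 in naive YFP+ libraries. T_EM cells held 3943, 3783 and 8559.8 in YFP- and 400.4, 227 and 521 in YFP+ libraries. Ciita fell 13.9-fold (log2 fold change -3.80, SE 0.481, adjusted p 0.00052), close to the classical chains.

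Within T_EM groups the genes rose and sank together by library. In YFP- T_EM cells replicate 3 held the highest and replicate 2 the lowest level of all 10 genes. In YFP+ T_EM cells replicate 2 was the lowest for all 10, and replicate 1 was the highest for 9, the exception being Ciita, which was highest in replicate 3. The number of members lower in YFP+ T_EM cells was 10 without any 1 of the 6 T_EM libraries, and H2-DMa and H2-Ob did not pass where a log2 difference of at least 2 either way was also required. Over all genes, a fit with the replicate number as a block gave 814 higher and 1055 lower genes, and the share of higher genes among the calls was 33% in the fit above and 46% after quantile normalization.

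Genes that mark dendritic cells moved with the class II genes. Those that mark macrophages and B cells mostly did not, and the part of any of these markers in the result was not tested. Of 10 conventional dendritic cell markers, 9 were lower in YFP+ than in YFP- T_EM cells and Xcr1 did not pass (log2 fold change -0.45, adjusted p 0.909); their median log2 fold change was -3.99, and without YFP- replicate 3 the 9 became 6. Their summed normalized counts were 238, 422 and 406 in naive YFP-, 329, 1244 and 391 in naive YFP+, 29222, 20329 and 38666 in YFP- T_EM, and 2732, 1154 and 2379 in YFP+ T_EM libraries. The order of the libraries within both T_EM groups was that of Cd74. The most abundant of these markers was Wdfy4, a gene needed for cross-presentation, at 15304, 10336 and 18007 in YFP- and 1531, 608 and 1166 in YFP+ T_EM libraries (log2 fold change -3.79, adjusted p 0.000503). Itgax, the gene of CD11c, stood at 7956, 5454 and 10593 in YFP- and 607, 245 and 543 in YFP+ T_EM libraries (log2 fold change -4.16, adjusted p 0.000667). No marker of this list was at 0 in every library of a group, while Clec9a, Clec10a and Batf3 had at most 3 reads in each naive YFP- library.

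Plasmacytoid dendritic cell markers were lower in YFP+ T_EM cells for 8 of 10, with a median log2 fold change of -3.54. Their summed normalized counts were 2717, 2749 and 2764 in naive YFP-, 2395, 2989 and 2389 in naive YFP+, 17668, 10516 and 17562 in YFP- T_EM, and 7938, 5821 and 8196 in YFP+ T_EM libraries. By group mean the most abundant was Bst2, a gene that T cells express too, in naive and Runx2 in T_EM cells. Ccr9 was above Runx2 in YFP+ T_EM replicates 1 (2826 against 2477) and 3 (3405 against 2296). Bst2 was at 1846, 1624 and 1844 in the YFP+ T_EM libraries, so that the sums there follow mostly Runx2, Ccr9 and Bst2. Siglech, a defining marker of these cells, was at 3367, 1412 and 3263 in YFP- and at 118, 26.9 and 55.1 in YFP+ T_EM libraries (log2 fold change -5.45, adjusted p 0.00373). Klk1 was at 0 in each naive YFP- library and Siglech at 0 in 4 of the 6 naive libraries. Runx2 and Ccr9 did not pass, and the number of higher markers went from 0 to 1 with the replicate block, by DESeq2 and without replicate 2 of the YFP+ T_EM cells.

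Macrophage and monocyte markers did not move as the class II genes did: 2 of 10 were lower in YFP+ T_EM cells, Adgre1 (log2 fold change -2.99, adjusted p 0.0153) and Cd68 (log2 fold change -2.67, adjusted p 0.00269), and 8 did not pass. Their median log2 fold change was 1.38, with 6 of the 10 above 0, and 2 were higher in a fit of the compared libraries only. Either of the 2 calls was lost in 4 of the 6 fits that left out a T_EM library, namely YFP- replicates 1 and 3 and YFP+ replicates 2 and 3, in each of which 1 remained. Their sums were 440.0, 1069 and 221 in naive YFP-, 808, 5671 and 345 in naive YFP+, 7806, 6663 and 12117 in YFP- T_EM, and 5664, 2691 and 3477 in YFP+ T_EM libraries. The most abundant was Cd68 in naive YFP-, Adgre1 in YFP- T_EM and Csf1r in both YFP+ groups, so that the sums follow few genes. C1qa, the gene of a complement chain made by macrophages, was at 114, 179 and 111 in YFP- and 619, 249 and 279 in YFP+ T_EM libraries, and did not pass (log2 fold change 1.41, adjusted p 0.682). It was at 664 in replicate 2 of the naive YFP+ cells, the library in which 7 of the 10 class II genes were highest among naive cells.

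B cell markers were mixed. Among 10 of them, Cd79a (log2 fold change 1.91, adjusted p 0.0383) and Ebf1 (log2 fold change 2.94, adjusted p 0.00696) were higher in YFP+ T_EM cells, Blnk was lower (log2 fold change -2.10, adjusted p 0.0269) and 7 did not pass. Their median log2 fold change was 1.42, with 7 of the 10 above 0, and 4 were higher after quantile normalization and 4 by DESeq2. Leaving out a T_EM library changed the number that were higher to 1 or, without YFP+ replicate 2, to 5, and the number that were lower to 0 for 4 of the 6 libraries, YFP- replicates 1 and 3 and YFP+ replicates 1 and 2. The sums of the list were 699, 1792 and 1200.4 in naive YFP-, 939.9, 2597 and 1096 in naive YFP+, 2826, 2400.3 and 3536 in YFP- T_EM, and 1963, 1504 and 2215 in YFP+ T_EM libraries, with Cd79a the most abundant in naive and Cd22 in T_EM cells. Of the 10 T cell markers none passed in limma (median log2 fold change 0.197), and 2 were higher with the replicate block. Their sums lay between 234551 and 316797 in the 12 libraries, and the most abundant was Lck in naive YFP-, Bcl11b in naive YFP+ and Cd4 in T_EM cells.

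**Figure D2:**
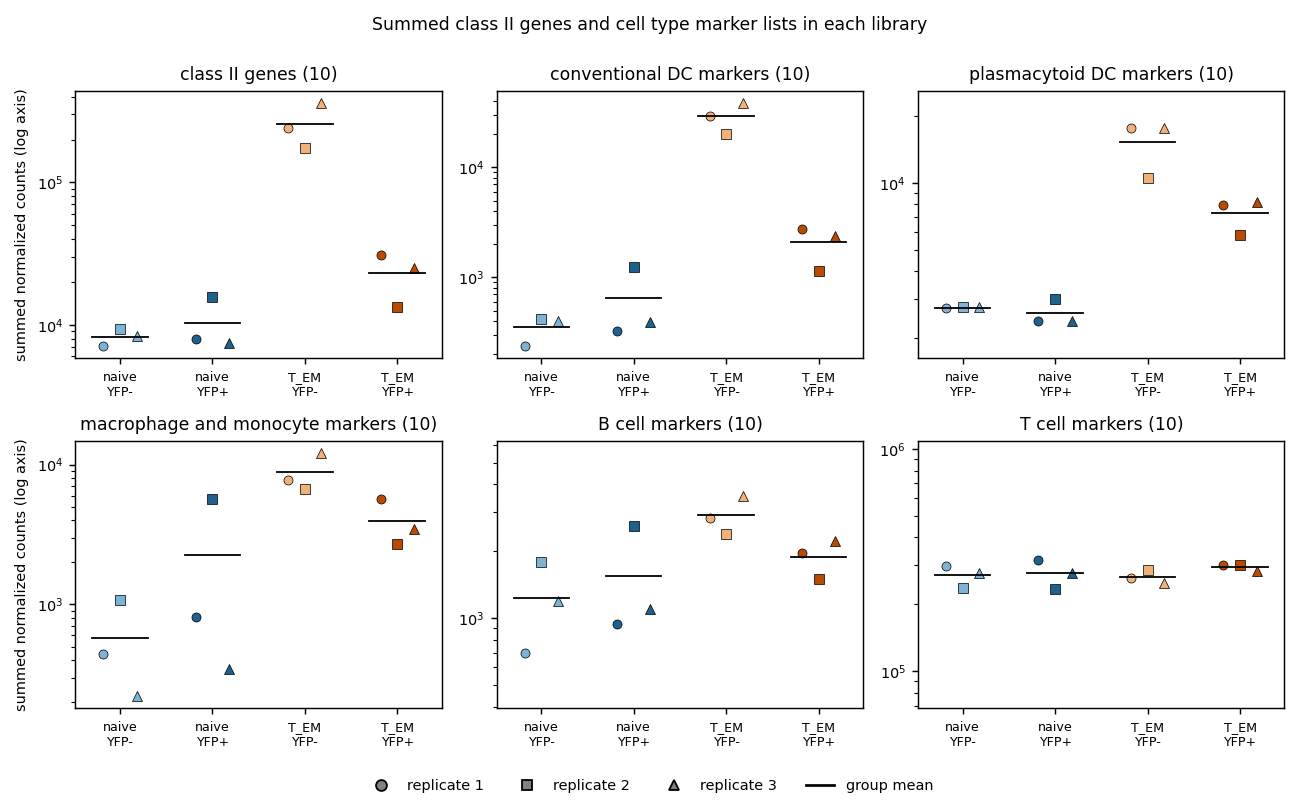
Summed normalized counts (log axis) of the 10 class II genes and of 5 lists of 10 cell type markers in each library, with lines for group means. Conventional dendritic cell markers range from 238 to 38666, while T cell markers stay between 234551 and 316797. The group means of the conventional dendritic cell, the macrophage and monocyte and the B cell markers have the same order as those of the class II genes.

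Naive YFP+ and YFP- cells showed no class II gene past the threshold, and the 2 groups overlapped for all 10. limma gave an adjusted p of 1 for each of them, and none had an unadjusted p of 0.05 or less by limma, edgeR or DESeq2. Over all genes tested by limma, 518 had an unadjusted p of that size and 1 passed after adjustment (0.00642% higher and 0.00% lower), which was Chn2 (log2 fold change 1.24, adjusted p 0.0101). With the replicate block 2 genes were higher and 4 were lower, while edgeR passed 2 genes and DESeq2 passed 14. Log2 fold changes were 0.45 for H2-Aa, 0.34 for H2-Ab1, 0.45 for H2-Eb1, 0.37 for Cd74 and 0.48 for Ciita. Those of the DM and O genes were -0.13 for H2-DMa, 0.85 for H2-DMb1, 0.45 for H2-DMb2, -0.19 for H2-Oa and 0.07 for H2-Ob, and the 10 had a median of 0.408 against 0.00689 over all genes. The values of several members depended on replicate 2 of the naive YFP+ cells. Without it the log2 fold change was -0.0047 for H2-Aa, -0.16 for H2-Ab1, -0.025 for H2-Eb1, -0.12 for Cd74 and -0.054 for Ciita. It was 0.073 for H2-DMb1 and 0.023 for H2-DMb2, so the largest value of the 10 rested on this library, and -0.13 for H2-DMa, -0.38 for H2-Oa and 0.0086 for H2-Ob. No member passed without it. Replicate 2 was also the highest of the naive YFP- libraries for 8 members, so leaving out only its YFP+ library leaves that level without its counterpart. Within each replicate number, H2-DMb1, H2-DMb2, H2-Ob and Ciita were higher in the naive YFP+ library in all 3, H2-DMa and H2-Oa were lower in all 3, and the classical chains and Cd74 were higher in 2. With the replicate number as a block no member passed either.

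The YFP difference in T_EM cells was then tested against that in naive cells. All 10 members passed this interaction, each with a lower log2 fold change in T_EM than in naive cells. Of the genes tested, 2.73% had a lower and 0.828% a higher value in this sense. Most members had a naive log2 fold change above 0, which adds to the size of their interaction. Of the conventional dendritic cell markers 8 of 10 were lower too (median -4.54, against -4.01 for the members). The 8 became 4 without replicate 3 of the YFP- T_EM cells and 5 with 0.1 added before the log. Of the plasmacytoid ones 8 of 10 were lower and 1 was higher (median -3.87), and 5 were lower with 0.1 added or by edgeR. The part of these markers was not tested. The interaction was -4.23 for H2-Aa, -4.21 for H2-Ab1, -4.24 for H2-Eb1 and -3.80 for Cd74 on the log2 scale, with adjusted p of 0.00419, 0.0046, 0.00338 and 0.0049. H2-DMa, H2-Ob and H2-Oa, with the smallest falls, also had the smallest interactions, which were -1.62 for H2-DMa (adjusted p 0.00297), -1.92 for H2-Ob (adjusted p 0.0041) and -2.03 for H2-Oa (adjusted p 0.0145). For H2-DMb1 it was -4.43 (adjusted p 0.0148), for H2-DMb2 -3.76 (adjusted p 0.00453) and for Ciita -4.27 (adjusted p 0.00544). Without replicate 3 of the YFP- T_EM cells, H2-DMb1 (-4.21, adjusted p 0.0525) and H2-Oa (-1.85, adjusted p 0.0517) no longer passed. H2-DMa and H2-Ob did not pass where a log2 difference of at least 2 either way was also required, and the replicate block gave 293 higher and 597 lower genes in all.

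T_EM cells were also set against naive cells at the same YFP status. In YFP- cells 9 of the 10 members were higher in T_EM cells and none was lower, where 29.9% of all genes were higher and 19.9% lower. The members' median log2 fold change was 5.45, against 0.0493 over all genes. H2-Ab1 was 65.0-fold higher (log2 fold change 6.02, adjusted p 4.63e-07), H2-Eb1 64.3-fold (adjusted p 2.21e-07) and Cd74 45.1-fold (adjusted p 5.11e-07). H2-Aa was 56.4-fold (adjusted p 3.94e-07), H2-DMb1 63.3-fold (adjusted p 5.29e-06), H2-DMb2 28.7-fold (adjusted p 1.01e-06) and Ciita 42.4-fold higher (adjusted p 1.64e-06). H2-Oa rose 11.7-fold (adjusted p 6.38e-07). H2-DMa had the smallest rise, at 2.92-fold (log2 fold change 1.55, adjusted p 4.29e-06). H2-Ob, the exception, did not pass and its groups overlapped (log2 fold change -0.14, adjusted p 0.57). Quantile normalization moved the median log2 fold change of all genes in this comparison from 0.0493 to -0.197 and the share of higher calls from 60 to 37.7%, and it changed the call of no member.

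In YFP+ cells the rise from naive to T_EM was smaller and did not reach every member. Of the 10 genes, 6 were higher, 1 was lower and 3 did not pass, where 24.7% of all genes tested were higher and 16.7% lower. H2-Ab1 (log2 fold change 1.81, adjusted p 0.00694), H2-Eb1 (log2 fold change 1.77, adjusted p 0.00456) and H2-Oa (log2 fold change 1.52, adjusted p 0.000861) were higher with no overlap between groups. H2-Aa (log2 fold change 1.59, adjusted p 0.0109) and Cd74 (log2 fold change 1.69, adjusted p 0.00647) passed although replicate 2 of the naive YFP+ cells reached into the range of the T_EM libraries. The classical chains and Cd74 were thus 3.00- to 3.51-fold higher, where the same genes had been over 45-fold higher in YFP- cells. H2-Ob fell 4.17-fold (log2 fold change -2.06, adjusted p 4.05e-06), and it was the only member that was lower in T_EM than in naive cells. H2-DMa, H2-DMb1 and Ciita did not pass, with log2 fold changes of -0.07, 1.55 and 1.14 (adjusted p 0.755, 0.0611 and 0.0782).

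This comparison depended on single libraries more than the others. Without replicate 2 of the naive YFP+ cells, H2-DMb1 (2.33, adjusted p 0.00251) and Ciita (1.67, adjusted p 0.00869) were also higher on the log2 scale, and without replicate 2 of the YFP+ T_EM cells they were as well (1.90, adjusted p 0.046, and 1.47, adjusted p 0.042). H2-DMb2 passed narrowly (log2 fold change 1.08, adjusted p 0.0488). It did not pass without replicate 1 or 3 of the naive YFP+ cells (adjusted p 0.171 and 0.138) or without replicate 1 or 3 of the YFP+ T_EM cells (adjusted p 0.158 and 0.113). The call was also lost by edgeR (adjusted p 0.0827), after quantile normalization (log2 fold change 0.61, adjusted p 0.174), with TMM factors (0.0529), without the filter for low values (0.0503), with 0.1 added before the log (0.0536), in a fit of the compared libraries only (0.068) and with no variance trend (0.0879). H2-DMb2 is thus the least certain of the 6. None of the 6 higher genes reached a log2 fold change of 2 with all libraries, so that none would be called where that was also required. H2-Aa, H2-Ab1, H2-Eb1 and Cd74 did without replicate 2 of the naive YFP+ cells (2.04, 2.31, 2.24 and 2.18) and without replicate 2 of the YFP+ T_EM cells. Quantile normalization moved the median of all genes here from 0.0328 to -0.138 and the share of higher calls from 59.6 to 39.8%. The 2 comparisons of T_EM with naive cells share their libraries with the YFP comparisons, so their values are not independent.

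**Figure D3:**
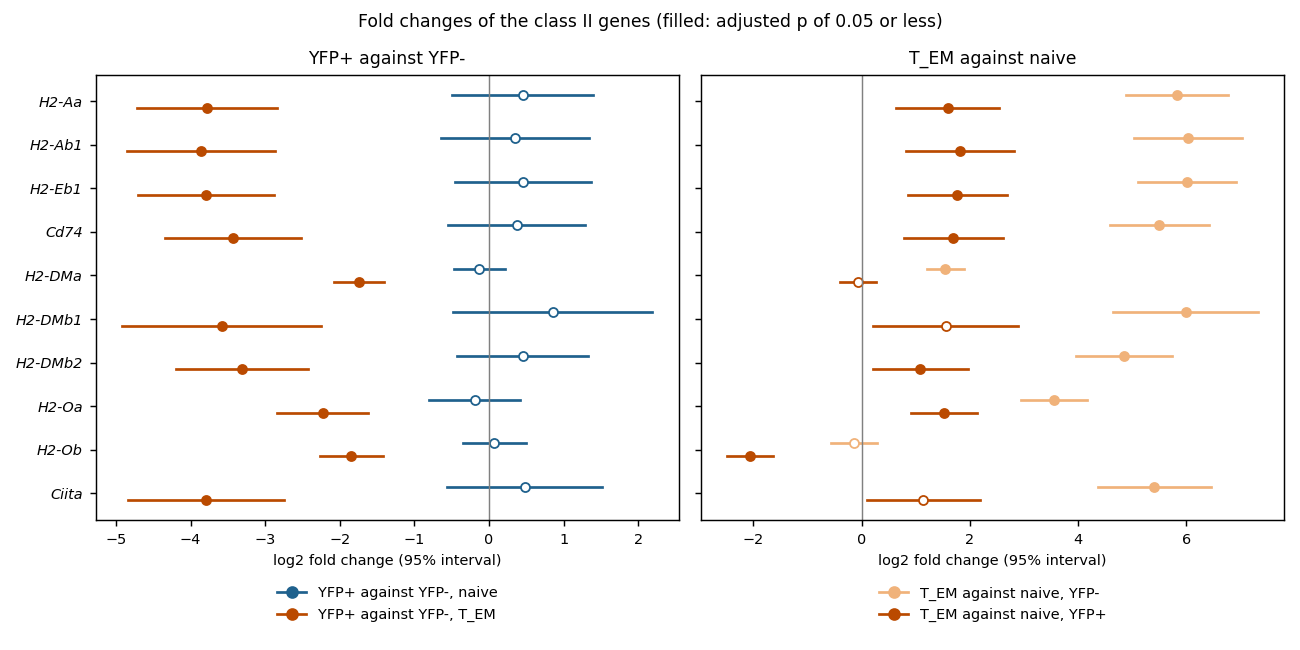
Log2 fold changes with 95% intervals of the 10 class II genes for YFP+ against YFP- cells (left) and for T_EM against naive cells (right); filled points have an adjusted p of 0.05 or less. All 10 lie below -1.7 in the YFP comparison within T_EM cells and none passes within naive cells.

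Divided by exon length, Cd74 stood above all other members in each of the 4 groups, and its libraries did not overlap those of the next gene. It was at 63295 ± 23806 normalized counts per kb (SD, n = 3) in YFP- T_EM cells, against 21959 ± 8160 for H2-Eb1 and 20046 ± 7135 for H2-Ab1. Those chains overlapped each other, and then came H2-Aa at 9917 ± 3606 per kb, clear of H2-Ab1 and of what followed. H2-DMb2, H2-Oa, H2-DMb1 and H2-DMa came next, from 2688 ± 917 to 1363 ± 376 per kb, and neighbours in that run overlapped. Ciita, at 569 ± 285 per kb, and H2-Ob, at 299.7 ± 65.1 per kb, were clear of the gene above them.

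In YFP+ T_EM cells Cd74 was at 5985 ± 2464 per kb (SD, n = 3) and the classical chains followed in the same order with libraries that overlapped, from 1624 ± 684 for H2-Eb1 to 752 ± 344 for H2-Aa. H2-DMa came directly after H2-Aa here and overlapped it, at 398 ± 38.5 per kb, and Ciita was last, at 40.1 ± 15.5 per kb and clear of H2-Ob. In naive YFP- cells Cd74 was at 1363 ± 298 per kb and H2-DMa was second, at 456 ± 38.9 per kb and clear of the genes on either side. H2-Eb1, H2-Ob, H2-Ab1, H2-Aa, H2-Oa and H2-DMb2 followed with neighbours that overlapped, from 332 ± 77.9 to 95.5 ± 42.6 per kb. H2-DMb1, at 24.8 ± 16.8 per kb, was below H2-DMb2 without overlap and overlapped Ciita, at 12.9 ± 4.19 per kb. Naive YFP+ cells had Cd74 at 1960 ± 1260 per kb, H2-Eb1 at 499 ± 310 per kb and H2-Ab1, which overlapped H2-Eb1, at 427 ± 281 per kb, with Ciita last at 20.1 ± 14.0 per kb. Without replicate 2 of these cells the means were 1233 per kb for Cd74, 417 for H2-DMa, 332 for H2-Ob, 319.97 for H2-Eb1 and 265 for H2-Ab1, so that H2-DMa came second as in naive YFP- cells. The wide spread in naive YFP+ cells came from replicate 2, in which Cd74 was at 3414 per kb against 1184 per kb in the lowest library.

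Ratios within a library do not depend on its depth. The partners H2-Aa and H2-Ab1 kept a ratio per length of 0.48 to 0.718 over the 12 libraries, and H2-Eb1 to H2-Ab1 one of 0.931 to 1.30. H2-Ab1 to Cd74 was at 0.318, 0.325 and 0.312 in the YFP- T_EM libraries and between 0.181 and 0.254 in the other 9. Ciita to Cd74 ranged only from 0.00521 to 0.0115, although Cd74 itself ranged from 1727 to 149677 normalized counts. The regulator and the invariant chain thus moved almost in step.

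The DM and O pairs did not keep their ratios. The beta chains H2-DMb1 and H2-DMb2 together, per length and relative to H2-DMa, were at 0.164, 0.447 and 0.201 in naive YFP- and 0.23, 0.819 and 0.325 in naive YFP+ libraries. The same ratio was 3.14, 2.74 and 3.15 in YFP- T_EM and 1.22, 0.716 and 0.991 in YFP+ T_EM libraries. By these counts DM transcripts were mostly alpha chain in naive cells and mostly beta chain in YFP- T_EM cells. Reads of Brd2, which overlaps H2-DMa, could not be told apart here. H2-Ob to H2-Oa per length was 2.42, 2.18 and 2.62 in naive YFP- and 3.20, 2.43 and 3.08 in naive YFP+ libraries. It was 0.18, 0.195 and 0.178 in YFP- T_EM and 0.204, 0.257 and 0.262 in YFP+ T_EM libraries. As counted, H2-O transcripts were mostly H2-Ob in all 6 naive and mostly H2-Oa in all 6 T_EM libraries, whatever the YFP status. The overlap of H2-Oa with BC051537 limits this in the same way.

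**Figure D4:**
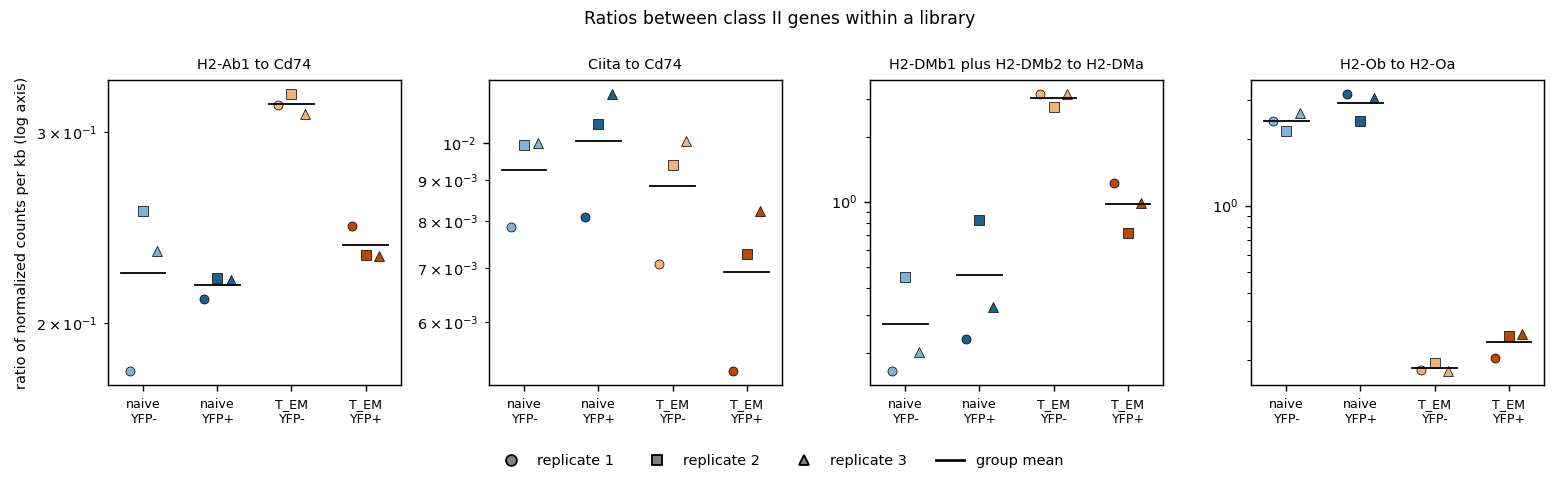
Ratios of normalized counts per kb (log axis) between class II genes within each library, with lines for group means. Ciita to Cd74 stays between 0.00521 and 0.0115, while H2-Ob to H2-Oa is above 2 in naive and below 0.3 in T_EM libraries.

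Genes that work beside the members were split in the YFP comparison within T_EM cells. Of 8 genes of antigen processing, 5 were lower in YFP+ cells, 1 was higher and 2 did not pass, with a median log2 fold change of -0.83. Ctsb, a lysosomal protease and the most abundant of them in T_EM cells, did not pass (log2 fold change 0.01, adjusted p 0.99). Ctsd, an aspartic protease, was higher (log2 fold change 0.51, adjusted p 0.033), a call that was lost without any of the YFP- replicates or YFP+ replicates 1 and 3, and with the replicate block 2 genes of the list were higher. Ctss, which trims the invariant chain, was at 13849, 12783 and 15809.6 normalized counts in YFP- and 8709, 8317 and 7459.8 in YFP+ T_EM libraries and fell less than any member (log2 fold change -0.79, adjusted p 0.000948). Ifi30, the lysosomal thiol reductase GILT, was at 7239, 6279 and 11447 in YFP- and 1984, 1551 and 2012 in YFP+ T_EM libraries (log2 fold change -2.13, adjusted p 9.32e-05).

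The factors through which CIITA acts at the promoter did not move with it. None of the 7 genes (the RFX and NF-Y subunits and Creb1) passed by limma between YFP+ and YFP- T_EM cells, and their median log2 fold change was 0.0188. Creb1, the most abundant, had a log2 fold change of 0.15 (adjusted p 0.542). Rfx5, the large RFX subunit, was at 2676, 2297 and 2583 normalized counts in YFP- and 2185, 2252 and 2171 in YFP+ T_EM libraries (log2 fold change -0.19, adjusted p 0.387). It was higher in T_EM than in naive cells of either YFP status (log2 fold change 0.87, adjusted p 1.38e-05 in YFP- and 0.69, adjusted p 0.000127 in YFP+ cells), a far smaller rise than that of Ciita in YFP- cells. Others of the list went the other way: Rfxap was lower in T_EM cells of either YFP status (log2 fold change -0.30, adjusted p 0.0108 in YFP- and -0.23, adjusted p 0.0498 in YFP+ cells), and Creb1 in YFP- cells (log2 fold change -0.30, adjusted p 0.0278). The call of Rfxap in YFP+ cells was lost without any 1 of the 6 libraries compared. In YFP- cells 1 of the 2 calls was lost without naive replicate 1 or 3 or T_EM replicate 1 or 2.

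Of the 2 ubiquitin ligases that send class II molecules for degradation, Marchf1 was at 975, 1172 and 2210.5 normalized counts in YFP- and 146, 88.0 and 219 in YFP+ T_EM libraries (log2 fold change -3.26, adjusted p 0.00134). Marchf8 did not pass (log2 fold change 1.15, adjusted p 0.414). H2-Eb2, a further class II beta chain gene outside the 10, was at 1715, 1134 and 2400.0 in YFP- and 205, 61.1 and 144 in YFP+ T_EM libraries (log2 fold change -3.76, adjusted p 0.00101). Of 5 costimulatory ligands, Cd40 was lower in YFP+ T_EM cells (log2 fold change -2.75, adjusted p 0.00988) and 4 did not pass. Cd83, the most abundant of them, was at 5909.6, 5315 and 5623 in YFP- and 2921, 4188 and 2912 in YFP+ T_EM libraries (log2 fold change -0.77, adjusted p 0.124). The number of these ligands that were lower was 3 with the replicate block, after quantile normalization and in a fit of the compared libraries only, and 4 by DESeq2; without a library it was 2 for YFP- replicate 2 and YFP+ replicate 2 and 0 for YFP- replicate 3.

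Neighbours on chromosome 17 stayed level where the class II genes fell. None of 5 genes lying among the members (Brd2, Psmb8, Psmb9, Tap1 and Tap2) passed by limma between YFP+ and YFP- T_EM cells, and their median log2 fold change was 0.0145. Brd2, which overlaps H2-DMa, was at 19773, 20085 and 19968 normalized counts in YFP- and 18899, 21885 and 19758 in YFP+ T_EM libraries (log2 fold change 0.01, adjusted p 0.975). None of 7 class I genes passed either, with a median log2 fold change of 0.195. H2-K1, a classical class I chain, was at 137436, 139734 and 150977 in YFP- and 172050.4, 155847 and 174699.5 in YFP+ T_EM libraries (log2 fold change 0.23, adjusted p 0.493). By DESeq2 1 gene of each of these lists was higher. A p that misses the threshold does not show that values were equal.

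**Figure D5:**
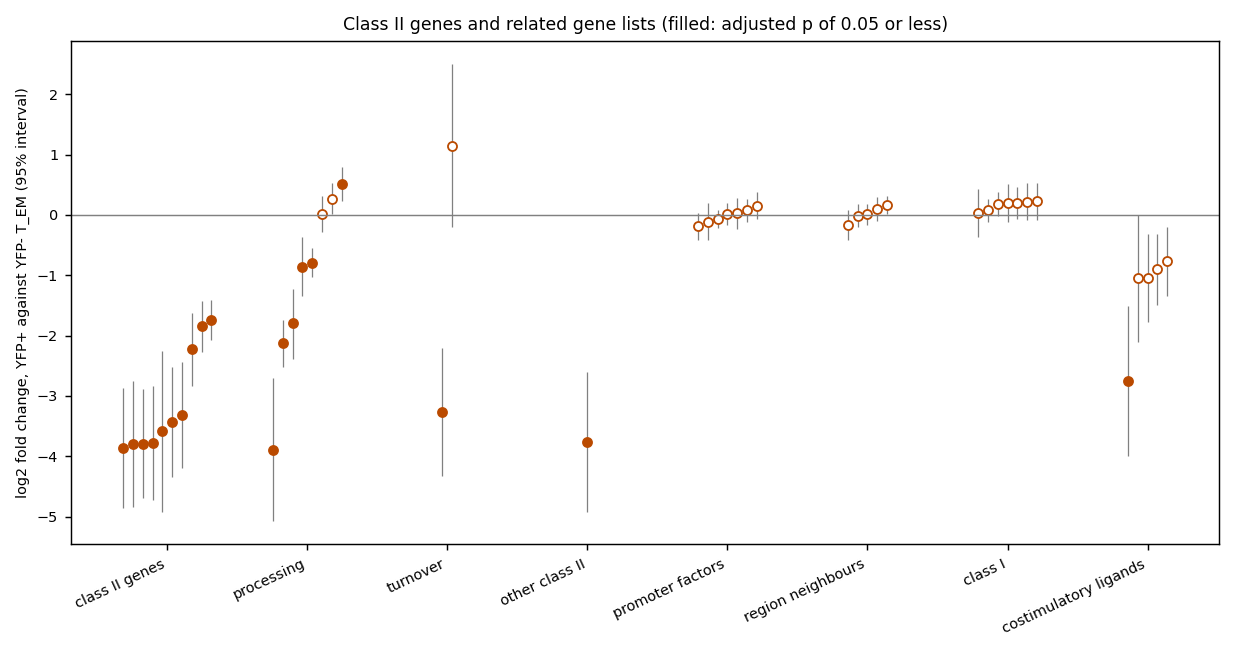
Log2 fold changes with 95% intervals between YFP+ and YFP- T_EM cells for the 10 class II genes and for related lists; filled points have an adjusted p of 0.05 or less. All 10 class II genes lie between -3.87 and -1.75, while the promoter factors, the neighbours on chromosome 17 and the class I genes lie near 0.

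Marker lists were also counted between T_EM and naive cells. Of all genes tested, 29.9% were higher and 19.9% lower in YFP- T_EM cells, and 24.7% were higher and 16.7% lower in YFP+ T_EM cells. Counts of 3 or 4 higher markers of 10 in YFP- cells are thus near the share of all genes. All 10 conventional and all 10 plasmacytoid dendritic cell markers were higher in YFP- T_EM than in naive YFP- cells, with median log2 fold changes of 6.64 and 4.44. In YFP+ cells 8 and 6 of them were higher, with medians of 2.00 and 1.37, and the 8 became 4 without replicate 1 of the naive YFP+ cells or without replicate 1 or 3 of the YFP+ T_EM cells. Macrophage and monocyte markers were higher for 4 of 10 in YFP- T_EM cells (6 with the replicate block and 7 in a fit of the compared libraries only) and for 1 of 10 in YFP+ T_EM cells. That 1 became 10 without replicate 2 of the naive YFP+ cells, and 0 without replicate 1 or 3 of the naive YFP+ or of the YFP+ T_EM cells. It was also 0 with 0.1 added before the log, after quantile normalization and in a fit of the compared libraries only. The same held with no variance trend, by edgeR and by DESeq2. B cell markers went mostly the other way: 6 of 10 were lower and 3 higher in YFP- T_EM than in naive YFP- cells (median log2 fold change -1.99), and 1 was higher in YFP+ T_EM cells. The 6 became 4 without replicate 2 of the naive YFP- cells, the 3 became 1 after quantile normalization and 2 without replicate 1 or 3 of either YFP- group, and quantile normalization made 6 lower in YFP+ cells. After quantile normalization, in YFP+ cells, 5 conventional dendritic cell markers were higher, and of the plasmacytoid ones 4 were higher and 3 lower. Dendritic cell markers thus moved with the class II genes in YFP- cells and less surely in YFP+ cells, and their part in the result was not tested.

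The genes most like Cd74 over the 12 libraries were sought among 11913 genes that averaged 50 normalized counts or more. Likeness was the root mean square difference between log2 profiles, each centred on its own mean, so that a smaller value is closer. Outside the members the 5 closest were Wdfy4 (0.227), Ctsh (0.274), Ly86 (0.277), Spi1 (0.301) and Rassf4 (0.305). Among the members H2-Aa (0.163), H2-Eb1 (0.2), H2-Ab1 (0.248) and Ciita (0.304) were as close, and H2-DMb2 (0.369) and H2-DMb1 (0.409) came near. H2-Oa (0.802, place 152 of all genes compared) and H2-DMa (1.62, place 1134) were less close, and H2-Ob (2.46, place 10038) was the farthest of the members. For Ciita the 5 closest outside the members were Ly86 (0.279), Fgd2 (0.323), Wdfy4 (0.334), Rassf4 (0.336) and Napsa (0.354), with Cd74 at 0.304. Wdfy4 is itself one of the conventional dendritic cell markers given above, and Ctsh one of the processing genes.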

How the data were processed

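RNA from 12 libraries of sorted spleen CD4+ T cells (TruSeq Stranded Total RNA, HiSeq2500) was, per the study's methods and the submitters' notes, mapped to mm10 with DRAGEN, counted with Rsubread and analysed with DESeq2; versions, annotation and the counting strand are not given in the sources used here. The deposited signal values are gene counts that the authors divided by size factors. Whole reads were recovered for 100% of values (within 0.01). The main test was limma 3.58.1 (R 4.3.3; group means, all 12 libraries, 8 residual degrees of freedom, trended variance) on log2(normalized count + 1) for 15587 genes reaching 5 normalized counts in 3 or more libraries, which all 10 class II genes passed, with Benjamini-Hochberg adjustment. Fold changes on this scale understate changes of low genes. The recovered reads were tested with edgeR 4.0.16 and DESeq2 1.42.0, and the fit was tested on simulated data. Gene names came from RefSeq (16749 of 17523), exon lengths from RefSeq, and transcripts of the DM beta chains from GENCODE M21.

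All 10 class II genes are described, with the genes of lists on the pathway, neighbouring genes, class I genes, costimulatory ligands and cell type markers by counts, medians and up to 4 examples. The members and lists were chosen with earlier results of these data known. The study's methods give n = 3 for the Gr/fr mice, but the labels do not state that each replicate number is a separate mouse. The p-values therefore measure only the spread between these samples. Libraries with the same number deviated together: correlations of their deviations from the group means were 0.180, 0.338 and 0.356 between YFP+ and YFP- T_EM, 0.306, 0.491 and 0.360 between naive and 0.168, 0.137 and 0.232 between YFP- T_EM and naive libraries, so the numbers pair these samples; between YFP+ T_EM and naive libraries they were 0.204, -0.020 and 0.056. No 2 libraries of a group agreed within sampling noise.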

Additional observations from a re-analysis of the deposited data

Results flagged for a closer look

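The YFP difference was larger in T_EM than in naive cells for all 10 class II genes by the limma test of the interaction itself. Its size on the log2 scale was -4.23 for H2-Aa, -4.21 for H2-Ab1, -4.24 for H2-Eb1, -3.80 for Cd74, -1.62 for H2-DMa, -4.43 for H2-DMb1, -3.76 for H2-DMb2, -2.03 for H2-Oa, -1.92 for H2-Ob and -4.27 for Ciita. Dendritic cell markers moved with them: 8 of 10 conventional ones (median -4.54) and 8 of 10 plasmacytoid ones (median -3.87) were lower in this test, and 1 plasmacytoid marker was higher. Their part in the result was not tested.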

How the results depend on the processing

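Over 26 alternative settings, of which each comparison took those that apply, 196 of 198 values of the members kept direction and call in the YFP comparison within T_EM cells, 190 of 198 within naive cells, 244 of 248 in the interaction, 196 of 198 for T_EM against naive in YFP- and 176 of 198 in YFP+ cells. Where a log2 difference of at least 2 either way was also required, members higher in YFP+ T_EM than in naive YFP+ cells went from 6 to 0, those higher in YFP- T_EM than in naive YFP- cells from 9 to 8, and those lower in the YFP comparison within T_EM cells and in the interaction from 10 to 8. The 6 became 5, by the loss of H2-DMb2, with 0.1 added before the log, no filter, quantile normalization, TMM factors, the compared libraries only, no variance trend and edgeR. With the DM beta chains summed into 1 gene the counts were 5, 8, 9 and 9. Leaving out each library in turn gave 10 to 10 members lower in the YFP comparison within T_EM cells, 0 to 0 within naive cells, 8 to 10 lower in the interaction, 9 to 9 higher in T_EM YFP- and 5 to 8 higher and 1 to 1 lower in T_EM YFP+ against naive cells. The replicate block changed no member's call.

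Directions turned only for members that had not passed, and the cause was not tested. In naive cells H2-Ob was -0.094 without replicate 3 of YFP-, -0.017 without replicate 1 and 0.22 without replicate 3 of YFP+, and H2-Oa was 0.00017 without replicate 3 of YFP+ and -0.42 without replicate 3 of YFP-. Without replicate 2 of naive YFP+, H2-Aa was -0.0047, H2-Ab1 -0.16, H2-Eb1 -0.025, Cd74 -0.12 and Ciita -0.054, where the other end was 0.73 for H2-Aa without replicate 3 and, without replicate 1, 0.64 for H2-Ab1, 0.70 for H2-Eb1, 0.64 for Cd74 and 0.89 for Ciita. For T_EM against naive, H2-Ob in YFP- was 0.018 without T_EM replicate 2 and -0.31 without naive replicate 3, and H2-DMa in YFP+ was 0.010 without T_EM replicate 2 and -0.13 without T_EM replicate 1.

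Over all genes, the 359 higher genes of the YFP comparison within T_EM cells became 686 after quantile normalization, 814 with the replicate block, 569 by DESeq2 and 175 to 394 without a library, and the 728 lower ones 358 to 600 without a library. Where a log2 difference of at least 1 or 2 was required they became 203 or 113, and the lower ones 430 at 2. The 129 higher genes of the interaction became 80 with 0.1 added before the log, 223, 293 and 206 under the 3 alternatives first named, 63 at 2 and 57 to 155 without a library, and its 425 lower genes became 638 by DESeq2 and 193 to 421 without a library. In naive cells 0 to 9 genes were higher and 0 to 5 lower over the alternatives. For T_EM against naive, the lower genes rose from 3104 to 5925 in YFP- and from 2604 to 4626 in YFP+ cells after quantile normalization; at 1 or 2 they were 819 or 270 and 781 or 258, and the higher ones 2480 at 2 in YFP- and 2538 or 1762 in YFP+ cells. The lowest read count of a member in any library was 21, for H2-DMb1, and how far depth limited its values was not tested.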
